A study of Mus musculus with 10 samples.

Results

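The miR-34 and miR-449 family was followed in 5 liver samples of mice that overexpress the coactivator PGC-1α in the liver (LivPGC-1α) and 5 of wild-type mice (WT). All animals were of the FVB/N strain (FVBN in the labels) and aged 4 months, and by the study's account the livers were taken after overnight fasting on a standard diet. The LivPGC-1α mice carry a human PGC-1α coding sequence in a vector with the apolipoprotein E promoter, so that the transgene is driven in hepatocytes, and the WT mice do not carry it. Total liver RNA of each sample was hybridised to 1 single-colour Illumina bead array. The family was taken as the probes whose array name equals one of 8 members, namely miR-34a, miR-34b-3p, miR-34b-5p, miR-34c, miR-34c*, miR-449a, miR-449b and miR-449c, out of 655 probes. Each of the 8 names matched 1 probe. The labels number 5 samples per genotype without naming the animal, so the p-values measure the spread between these samples, which may be technical. Precision is limited by having 5 arrays in each genotype.

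MiRNAs pair with the 3′ ends of target mRNAs mainly through the seed, bases 2 to 8 of the mature strand, and they lower the stability or translation of the target. The miR-34 genes are known as direct transcriptional targets of p53, and their products restrain cell cycle progression and survival. In liver, miR-34a is best known for repressing Sirt1, the deacetylase that activates PGC-1α, and PGC-1α mRNA is itself a reported target. The miR-449 genes and the miR-34b and miR-34c pair are known from multiciliated epithelium and from testis, where they act in the formation of cilia and in male germ cells.

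The mature strands are shown because the seed is what ties the paralogues together. Sequences were found in RefSeq (GRCm38.p6) for 6 of the 8 members, with array names that carry no arm read as the 5p strand and miR-34c* read as the 3p strand. Capitals mark the seed, and each line reads 5′ to 3′.
miR-34a: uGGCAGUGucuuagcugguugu
miR-34b-5p: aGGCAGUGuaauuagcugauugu
miR-449a: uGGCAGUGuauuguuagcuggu
miR-449c: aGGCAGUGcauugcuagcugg
miR-34b-3p: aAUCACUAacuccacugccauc
miR-34c*: aAUCACUAaccacacagccagg
Of the 1679 mature names in that table, 4 have the seed GGCAGUG, and all 4 are members. No sequence was found there for miR-34c and miR-449b, so the count does not cover them and their seeds were not compared. Outside the seed the strands diverge. Read position by position from the 5′ end without gaps, miR-34a shared 15 of 22 bases with miR-449a, 12 of 21 with miR-449c and 11 of 22 with miR-34b-5p, whereas miR-449a and miR-449c shared 18 of 21. The opposite arms miR-34b-3p and miR-34c* have the other seed, AUCACUA, which no further name in the table has, and shared 17 of 22 bases. Whether a probe also captures a paralogue was not tested.

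The family lies at 3 loci. The miR-34a strand is at chr4:150068473-150068494 on the plus strand, between the long non-coding RNA gene Gm13067 and Gpr157, inside no other gene of the table. The miR-34b and miR-34c genes are neighbours on the minus strand of chromosome 9, with miR-34b-5p at chr9:51103610-51103632, miR-34b-3p at chr9:51103574-51103595 and miR-34c* at chr9:51103044-51103065, all within the bounds of Btg4 and Hoatz. The miR-449 genes lie within Cdc20b on chromosome 13, next to Mcidas, a gene of multiciliated cells, with miR-449c at chr13:113036008-113036028 and miR-449a at chr13:113037549-113037570 on the plus strand. These positions are those of GRCm38.p6. The array table names no build and gives only chromosomes 4, 9 and 13 for these probes.

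Intensities were quantile-normalized over the 10 arrays, and a probe counted as detected at a detection p of at most 0.01, a value the scanner software derives from negative control beads on that array. Between 431 and 457 probes were detected on the LivPGC-1α arrays and between 423 and 482 on the WT arrays. All arrays lay on 1 chip, with the WT arrays at positions A to E and the LivPGC-1α arrays at positions F to J. Position and genotype therefore cannot be told apart. All 8 probes of a hepatocyte list, among them miR-122, were detected on all 10 arrays. PGC-1α mRNA is no target of a miRNA array, so overexpression itself was not analysed here. On WT 1 and WT 3, miRNAs known from other tissues stood apart. On WT 1 the 6 tested striated muscle probes deviated from their medians by 3.21 on average on the log2 scale, against −0.13 to 0.20 on the other arrays, led by miR-206 and miR-133a. On WT 3 the 20 tested probes of an X-linked testis cluster deviated by 1.26 on average, against −0.11 to 0.08 elsewhere, led by miR-880 and miR-470. Not all of them rose alike, and 12 of the 20 deviated upward by more than 1. The log2 deviations of all tested probes from the mean of their genotype had an SD of 0.11 to 0.18 on the LivPGC-1α arrays. The WT arrays split, with 0.16 and 0.17 for WT 4 and WT 2 but 0.33 for WT 3 and 0.37 each for WT 1 and WT 5, so that WT 5 stood apart too. For the change of miR-34a, values without these arrays are given below.

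Of the family, 3 members were detected in liver, and they comprised miR-34a and both arms of miR-34b. miR-34a and miR-34b-5p were detected on all 5 LivPGC-1α and all 5 WT arrays, and miR-34b-3p on 4 of each. The other 5 members were detected on 0 of 10 arrays and were therefore not tested. No member was detected in one genotype and absent from the other.

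**Figure D1:**
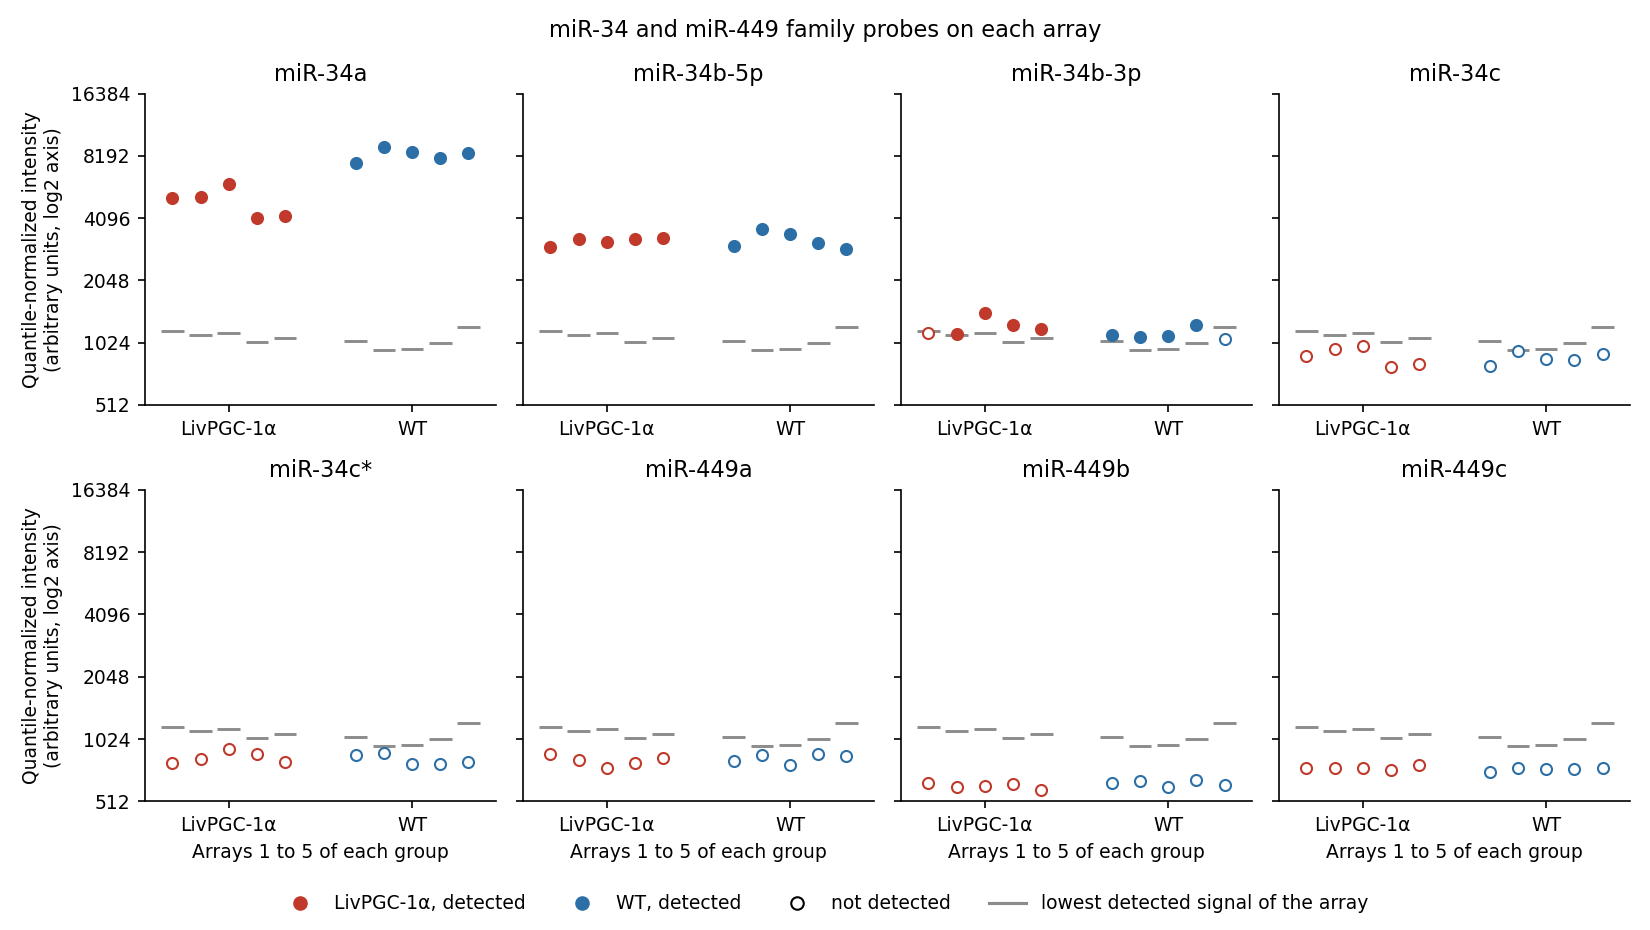
Quantile-normalized intensity (arbitrary units, log2 axis) of the 8 family probes on each array, LivPGC-1α to the left and WT to the right in every panel. Filled points are detected, open points are not, and the grey lines give the lowest detected signal of each array. Only miR-34a separates the genotypes, with 4122 to 5972 in LivPGC-1α and 7600 to 9077 in WT.

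miR-34a, the family's main p53-responsive member in most tissues, fell in LivPGC-1α liver. Its normalized intensity was 5128, 5196, 5972, 4122 and 4215 on LivPGC-1α 1 to 5, against 7600, 9077, 8561, 7986 and 8461 on WT 1 to 5. All LivPGC-1α arrays lay below all WT arrays, and the lowest WT value was still 1.27 times the highest LivPGC-1α value. The means were 4927 ± 768 (SD, n = 5) in LivPGC-1α and 8337 ± 565 (SD, n = 5) in WT. The log2 change was −0.77 ± 0.10 (SE), with a 95% interval of −1.0 to −0.54, or 1.71-fold lower (limma, adjusted p = 0.0143, and exact permutation test, two-sided, p = 0.00794, the smallest that 5 against 5 arrays allow). Within the genotypes the arrays were more scattered in LivPGC-1α, where LivPGC-1α 4 and 5 were the lowest and LivPGC-1α 3 the highest. The coefficient of variation was 15.6% in LivPGC-1α and 6.78% in WT.

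Thus 1 of the 3 tested members was called lower at an adjusted p under 0.05. Over all 513 tested probes, 0.195% were called lower and 0.390% in either direction. Those calls were miR-34a and, higher in LivPGC-1α, miR-1224 (log2 change 0.25, adjusted p = 0.0206). Groups that did not overlap were found, in the lower direction, for 0.975% of the tested probes, and in either direction for 4.87%. The split of the calls into higher and lower was 1 and 1, but it was 76 and 4 with each array set to its 75th percentile of all probes, 0 and 2 with that percentile taken from the probes that every array detected, and 0 and 1 with cyclic loess or without normalization. miR-34a was called lower in each of these settings. Its call was lost when WT 2 (adjusted p = 0.0573), WT 5 (0.0547) or LivPGC-1α 1 (0.0510) was left out, with changes of −0.75, −0.77 and −0.79. It was also lost without both WT 1 and WT 3 (−0.79, adjusted p = 0.124), without WT 1, WT 3 and WT 5 (−0.80, adjusted p = 0.254) and once chip position entered the fit as a linear covariate (−0.58 ± 0.21 SE, adjusted p = 0.696).

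**Figure D2:**
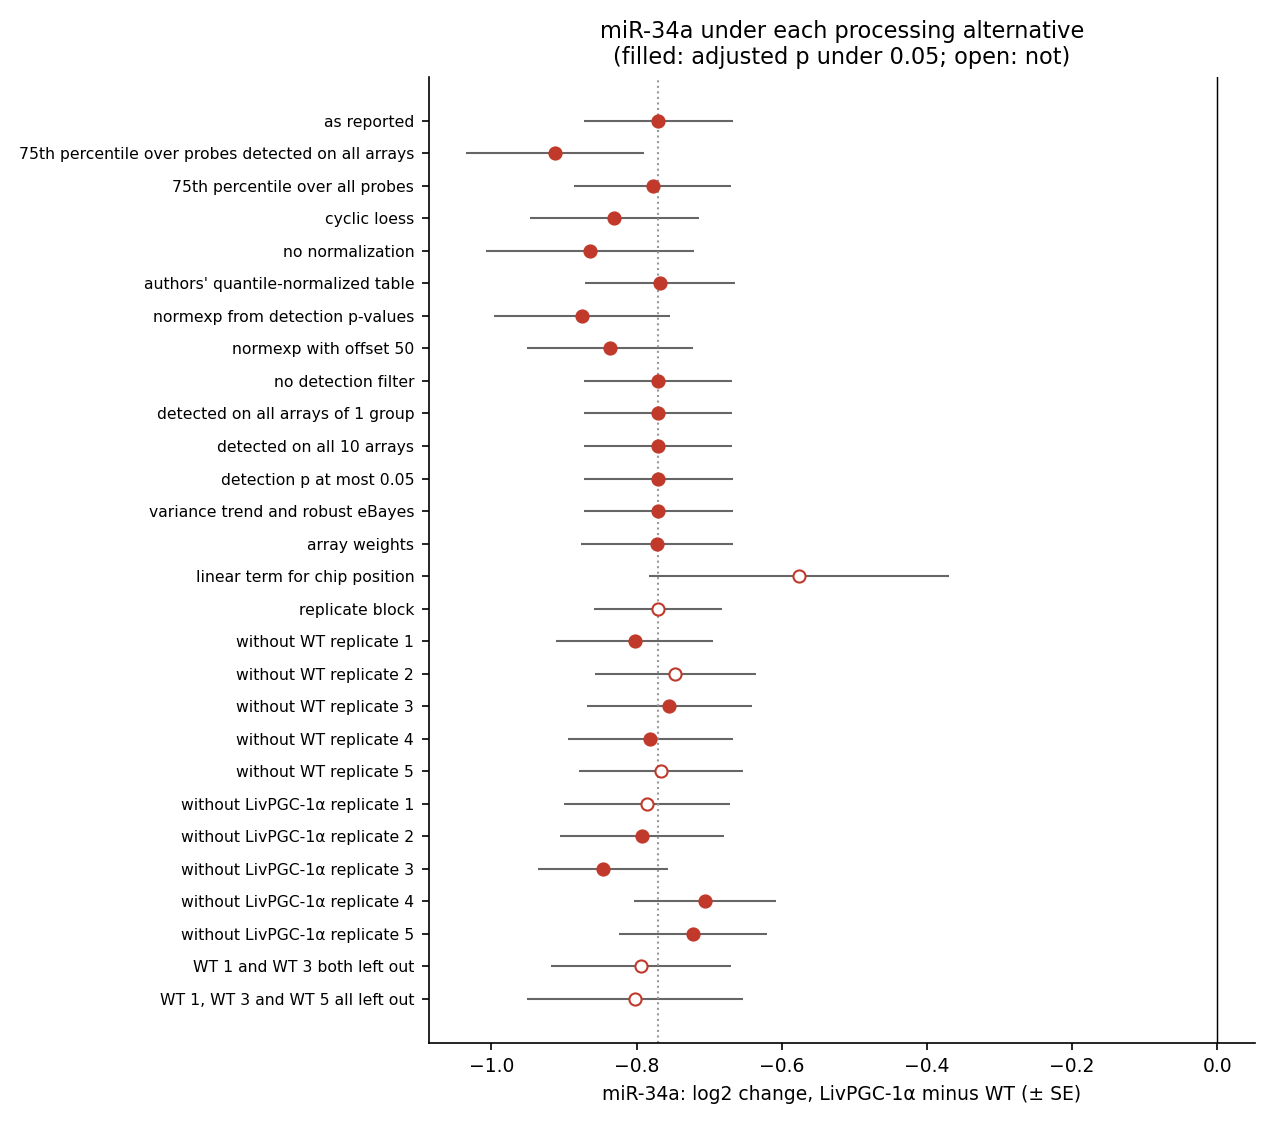
Log2 change of miR-34a (LivPGC-1α minus WT, horizontal axis, bars ± SE) under the reported processing and under each of 27 alternatives. Every change lies below 0, between −0.91 and −0.58, and 20 of the 27 pass at an adjusted p under 0.05 (filled points). The filter, variance trend and replicate block settings cannot move the change itself.

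The position of miR-34a within each array restates these values on another scale, since quantile normalization works from the same ranks, and adds no separate test. Ranked by raw signal among the 655 probes of its own array, with the brightest first, miR-34a stood at place 220, 218, 204, 243 and 240 on LivPGC-1α 1 to 5 and at 186, 170, 175, 181 and 177 on WT 1 to 5. The ranks did not overlap. The mean rank was 225 ± 16.3 (SD, n = 5) in LivPGC-1α and 177.8 ± 6.06 (SD, n = 5) in WT, a difference of 47.2 places. Leaving out any one array gave between 42.7 and 52.5 places.

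**Figure D3:**
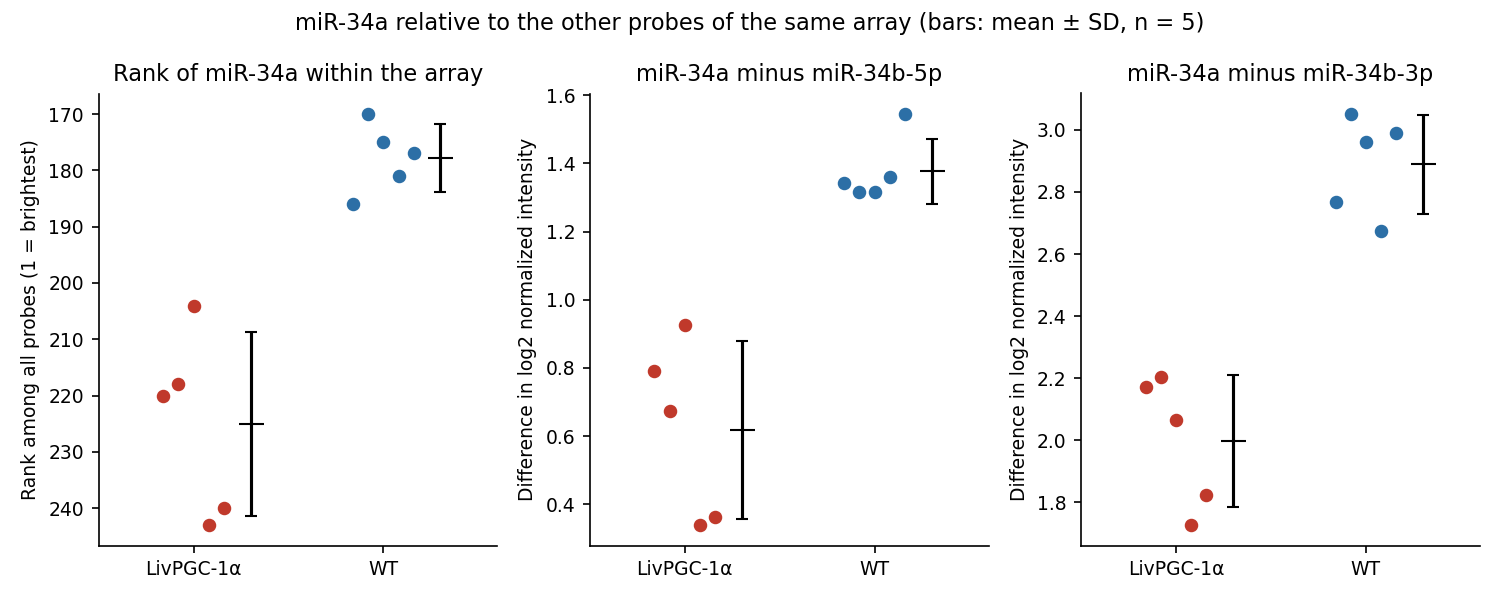
Left, rank of miR-34a among all probes of each array (1 is the brightest, axis inverted), and its log2 normalized intensity minus that of miR-34b-5p (middle) or miR-34b-3p (right) on the same array. LivPGC-1α points are on the left of each panel and WT points on the right, with mean ± SD (n = 5). The mean rank is 225 in LivPGC-1α and 177.8 in WT, and in no panel do the genotypes overlap.

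For miR-34b, the 5p probe was detected on all 10 arrays, whereas the 3p probe lay close to the detection limit. The 5p arm, miR-34b-5p, which has the seed of miR-34a, had an intensity of 2964, 3259.9, 3142, 3259.9 and 3277 on LivPGC-1α 1 to 5 and of 2994.5, 3642, 3435, 3109.7 and 2899.7 on WT 1 to 5. The genotypes overlapped fully, with the highest and the lowest value both in WT. The means were 3181 ± 133 (SD, n = 5) in LivPGC-1α and 3216 ± 312 (SD, n = 5) in WT, and the log2 change was −0.012 ± 0.065 (SE), with a 95% interval of −0.16 to 0.13 (limma, adjusted p = 0.967). The sign of this small change turned to 0.011 where arrays were set to the 75th percentile of all probes, and the change was −0.12 with that percentile taken from the probes that every array detected.

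miR-34b-3p, cut from the opposite arm of the same hairpin, lay close to the detection limit. Its intensity was 1139, 1128.5, 1428, 1245.5 and 1191 on LivPGC-1α 1 to 5 and 1116, 1095, 1101, 1249.9 and 1065 on WT 1 to 5. The lowest detected signal of an array was between 1035 and 1164 in LivPGC-1α and between 947.5 and 1218 in WT. LivPGC-1α 3 was the highest array and the genotypes overlapped. The log2 change was 0.12 ± 0.07 (SE), with a 95% interval of −0.037 to 0.28 (limma, adjusted p = 0.487). Without LivPGC-1α 3 it was 0.064, and between the scalings and background corrections it ran from 0.00039 to 0.31, so that no direction is read from it. It was not detected on LivPGC-1α 1, with a detection p of 0.0122, or on WT 5, with 0.0460. Across the 10 arrays, the log2 intensities of both miR-34b arms correlated at r = −0.054, a description over arrays that hold both genotypes.

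Whether the change of miR-34a differed from that of miR-34b-5p was tested on the same arrays. Since miR-34b-5p hardly changed, the result largely repeats that of miR-34a and adds no separate support. The log2 intensity of miR-34a minus that of miR-34b-5p averaged 0.62 ± 0.26 (SD, n = 5) in LivPGC-1α and 1.38 ± 0.10 (SD, n = 5) in WT, a difference of −0.76 (exact permutation test, two-sided, p = 0.00794, the same after adjustment over the 2 pairs computed), without overlap. On raw signals this difference was −0.79. Against miR-34b-3p it averaged 2.00 ± 0.21 (SD, n = 5) in LivPGC-1α and 2.89 ± 0.16 (SD, n = 5) in WT, a difference of −0.89. That value is given as a description, since miR-34b-3p lay near background and a signal there cannot show a fall in full. The levels of different probes are not comparable, so these values speak of unequal change only.

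The remaining members stayed at background in both genotypes. miR-34c, which is transcribed together with miR-34b, had intensities of 779 to 988 in LivPGC-1α and 791 to 932 in WT, with detection p-values between 0.0119 and 0.302. WT 2 came closest to detection, at 0.0119. miR-34c* had 787 to 915 in LivPGC-1α and 773 to 873 in WT, with detection p between 0.0450 and 0.435. At a limit of 0.05 each of these strands would count as detected on 1 array, which was WT 2 in both cases, and miR-34b-3p on all 10.

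The miR-449 cluster was likewise undetected in both genotypes. miR-449a had 745 to 864 in LivPGC-1α and 763 to 868 in WT (detection p between 0.0548 and 0.480). miR-449b had 584 to 626 in LivPGC-1α and 603 to 652 in WT (detection p between 0.664 and 0.806), and miR-449c had 729 to 764 in LivPGC-1α and 711 to 742 in WT (detection p between 0.296 and 0.558). None passed even a limit of 0.05, and no fold is given where both genotypes are below detection. On WT 3, the array with the testis cluster, the 7 members other than miR-34a deviated from their medians by −0.10 to 0.10 on the log2 scale, and miR-34a by 0.35, within the range of the WT arrays.

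The pathway around miR-34a was examined through other miRNAs. A first list held 10 miRNAs whose transcription or processing is known to respond to p53, and all 10 were tested. Of these 0 were called higher and 0 lower by limma, 5 lay above and 5 below 0, and the median log2 change was −0.0045, beside 0.012 over all tested probes. None of the 10 separated the genotypes. With 0.390% of all tested probes called and 4.87% not overlapping, counts of 0 in a list of this size say nothing particular to it. The smallest p belonged to miR-15a, which represses Bcl2 together with miR-16. It had a mean intensity of 22321 in LivPGC-1α and 24895 in WT and a log2 change of −0.16 ± 0.05 (SE), which did not pass (adjusted p = 0.145). miR-16, the brightest, changed by −0.034 ± 0.022 (adjusted p = 0.532). The list holds miR-192 and miR-194, which hepatocytes express strongly, with changes of 0.010 and 0.040, both also members of the hepatocyte list, and miR-143 and miR-145 of smooth muscle and stellate cells, with −0.015 and 0.020.

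A second list held miRNAs that, like miR-34a, are reported to target Sirt1. Of its 11 probes 9 were tested, 0 were called in either direction, 5 lay above and 4 below 0, and the median log2 change was 0.0024. At 0.390% called over all tested probes, this count of 0 is likewise near the background. miR-93 had the smallest p (−0.13 ± 0.05 SE, adjusted p = 0.268). miR-22, the brightest, changed by 0.0024 ± 0.021 (adjusted p = 0.988). The changes of the list lay between −0.34 and 0.19. No member of either list changed by as much as miR-34a, whose change was −0.77. Only 4 of the 513 tested probes did, so this says nothing particular to the lists.

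**Figure D4:**
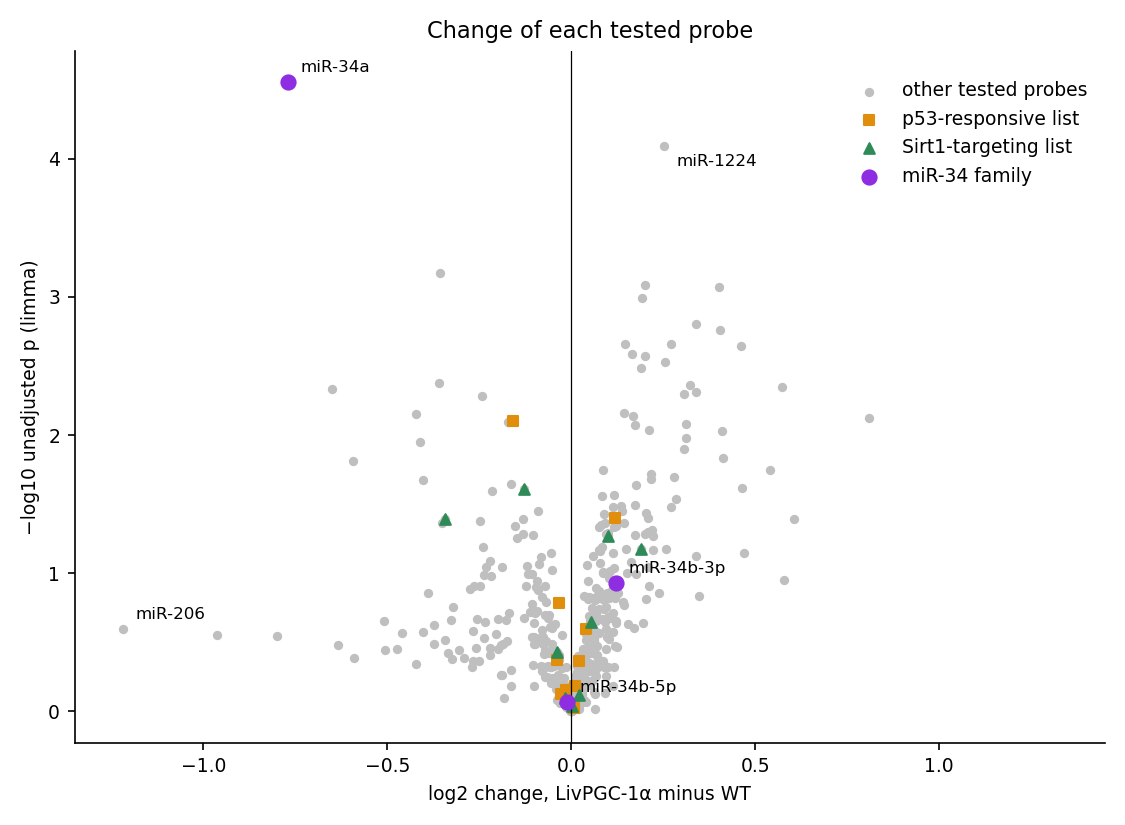
Log2 change (LivPGC-1α minus WT, horizontal axis) against −log10 of the unadjusted limma p (vertical axis) for the 513 tested probes. miR-34a stands alone at the upper left at −0.77, the miR-34b arms lie at −0.012 and 0.12, and none of the p53-responsive (squares) or Sirt1-targeting miRNAs (triangles) reached an adjusted p under 0.05.

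By size, the change of miR-34a was exceeded by 4 of the 513 tested probes, which are named here after their values had been seen. Among them, miR-206 (−1.22 ± 1.00 SE), miR-133a (−0.96 ± 0.84 SE) and miR-499 (−0.80 ± 0.71 SE) are the striated muscle miRNAs of WT 1. Their genotypes overlapped, and none passed. Of these, miR-133a was detected on all 10 arrays, but miR-206 on 2 and miR-499 on 1. The LivPGC-1α means of miR-206 and miR-499, 699 and 813, were at background. miR-1196 was higher by 0.81 ± 0.24 (SE) without overlap and did not pass either (adjusted p = 0.145). The standard error of miR-34a was 0.10, against a median of 0.065 over all tested probes.

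The probes that followed miR-34a most closely over the 10 arrays were listed as a description, since all share the same arrays and genotypes. The highest Pearson correlations of log2 intensity were those of solexa-2011-236, a provisional name (r = 0.84), miR-674* (0.75), miR-374 (0.75), let-7e (0.72) and miR-154 (0.72). Their log2 changes lay between −0.65 and −0.056, and none passed. The mean intensity of solexa-2011-236 in LivPGC-1α was 811, below 1035, the lowest detected signal of any LivPGC-1α array. Background therefore limits its correlation and its change of −0.65. The lowest correlations were those of miR-1224 (−0.87), miR-546 (−0.83) and miR-10a (−0.83), which were higher in LivPGC-1α by 0.25, 0.085 and 0.20, of which miR-1224 passed. Within the 5 arrays of a genotype the values were scattered. Among the 5 probes with the highest values, r within LivPGC-1α was between −0.43 and 0.84 and within WT between −0.23 and 0.83.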

How the data were processed

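Per the study's methods, total liver RNA was profiled on Illumina Universal BeadChips. GenomeStudio gave 1 mean bead signal per probe, and the authors deposited this intensity without background subtraction or scaling, beside a detection p-value deposited for each probe and array. A second deposited table holds the authors' quantile-normalized intensity, and between 97.6% and 99.8% of its values per array lie within 1% of those computed here. Intensities below 1 were raised to 1, quantile-normalized over 655 probes and log2-transformed without an offset. Probes with a detection p of at most 0.01 on at least 1 array (513) were fitted with limma (version 3.58.1, R 4.3.3; lmFit, eBayes, genotype as the only term), with Benjamini-Hochberg adjustment over all of them. Changes are LivPGC-1α minus WT. For single values, two-sided exact permutation tests over the 10 arrays were used. The fit was tested on simulated data. Alternatives covered scaling, background, filters, variance model, position, pairing and left-out arrays. The text names all 8 members, the called probes, the smallest-p and the brightest member of each list, the probes most like each detected member, and the leading members of lists that stood apart. The members and lists were chosen with earlier results of these data known. The other list members given with values were chosen after those were seen. Neighbouring genes were read from the RefSeq gene table of GRCm38.p6.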

Additional observations from a re-analysis of the deposited data

Results flagged for a closer look

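Each member and the rank of miR-34a were checked for 1 array far from the other 4 of its genotype, 18 checks in all, of which about 0.9 would be met by chance at a rate of 1 in 20. This was met once, by miR-449c on WT 1, whose log2 intensity of 9.47 lay below the 9.52 to 9.53 of the other WT arrays, a gap of 0.765 of the group's range. The probe was not detected on any array.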

How the results depend on the processing

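Of the 27 alternatives, those of filter, variance trend and replicate block cannot move the size of a change, only its p-value. The authors' table repeats the quantile normalization. The change of miR-34a lay below 0 under all 27 alternatives, between −0.91 and −0.58, and passed under 20 of them. It did not pass once chip position was a linear covariate (−0.58, adjusted p = 0.696), with the replicate number as a block (replicate block, −0.77, adjusted p = 0.107), without both WT 1 and WT 3 (−0.79, adjusted p = 0.124) or without WT 1, WT 3 and WT 5 (−0.80, adjusted p = 0.254), and leaving out single arrays gave −0.85 to −0.71, with an adjusted p between 0.0045 and 0.0573. In the 4 settings before the single arrays, 0 probes and 0 members were called (36, 59, 51 and 53 probes had an unadjusted p under 0.05 in limma). The correlation of same-numbered deviations between genotypes was between −0.37 and 0.33 over the 5 numbers. Differently numbered arrays were not compared in this way, so whether the numbers pair the arrays was not tested. Over all tested probes, 2 were called as reported, 80 with arrays set to the 75th percentile of all probes, 1 with cyclic loess, without normalization or with robust eBayes on a variance trend, and 0 to 4 when single arrays were left out, with 0 to 1 member among them. miR-34b-5p changed sign to 0.011 under that percentile scaling, was −0.12 with the percentile of those probes that every array detected and lay between −0.049 and 0.035 without single arrays, above 0 at 0.035 without WT 2, at 0.013 without WT 3 and at 0.013 without LivPGC-1α 1. The median change of the p53-responsive list was 0.13 under the percentile scaling over all probes and 0.041 without normalization, and that of the Sirt1 list was 0.11 under the percentile scaling, where the median over all tested probes was 0.075. At a detection limit of 0.05, miR-34c and miR-34c* were detected on 1 array each. miR-34b-3p could not be fitted where detection on all arrays of a genotype was required. miR-34b-3p ran from 0.00039 to 0.31 and was 0.064 without LivPGC-1α 3. Signal over background limits miR-34b-3p and the 5 undetected members, for which a difference was not detectable. The causes of these changes were not tested.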

Other observations

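The probes most like the miR-34b arms were others than those listed for miR-34a, given as a description over the same 10 arrays. The intensity of miR-34b-5p went most closely with miR-1192 (r = 0.93), miR-196a (0.88), a miRNA of the Hox clusters, and miR-342-5p (0.85), none of which passed between LivPGC-1α and WT. That of miR-34b-3p went with miR-153 (r = 0.91), miR-703 (0.86) and the provisional solexa-447-1003 (0.86), with log2 changes of 0.31, 0.46 and 0.41 that did not pass (limma, adjusted p between 0.150 and 0.268). The means of miR-153, 920 in LivPGC-1α and 738 in WT, lay below the lowest detected signals of 1035 and 947.5. Its correlation with miR-34b-3p thus joins probes that both lay near background, and its change is limited in the same way. The correlation of miR-34a itself with miR-34b-5p was 0.087 over all arrays, −0.49 within LivPGC-1α and 0.72 within WT. With miR-34b-3p it was −0.40 over all arrays, 0.39 within LivPGC-1α and −0.44 within WT, each within-genotype value over 5 arrays.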
